A study of Rattus norvegicus with 12 samples.

Results

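miR-203 and miR-205, a pair of microRNAs (miRNAs) characteristic of covering and glandular epithelium, were followed in parotid acinar cells of the rat before and after birth. Their assays were found by name in the deposited table of qRT-PCR cycles, which held 2 such assays among 375 miRNA assays, mmu-miR-203 and mmu-miR-205. Both used mouse primers, and no rat assay of either was among the rows. The RNA came from acinar cells of albino Sprague Dawley rats cut out of tissue sections by laser capture microdissection, in 3 samples each at embryonic day 20 (E20) and at postnatal days 5, 15 and 25 (P5, P15, P25), 12 in all. The labels name no treatment, and per the study's methods the 3 samples of an age came from separate litters. Per the methods the gland was sectioned within the head at E20 and P5 and dissected out first in older animals, so those ages and that handling cannot be told apart. The postnatal samples are called postnatal in their titles and age labels, although their source labels also carry the word embryo. In pooled RNA of this kind, fewer cells of a type and less RNA per cell cannot be told apart.

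miRNAs are short RNAs that repress messenger RNAs, mostly through the seed, the bases near their 5′ end that pair with the target. miR-203 is known for its part in skin, where it represses the stem cell factor p63 as keratinocytes leave the basal layer and differentiate. miR-205 is abundant in the basal cells of stratified and glandular epithelia, and together with the miR-200 family it represses ZEB1 and ZEB2, repressors of the adhesion protein E-cadherin.

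The rat sequences of the pair and of 2 miR-200 family members are shown because their seeds set apart the target classes discussed here. They are from RefSeq (GRCr8), written 5′ to 3′, with the seed, bases 2 to 8, in capitals.
rno-miR-203a-3p: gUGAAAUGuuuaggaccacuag
rno-miR-205: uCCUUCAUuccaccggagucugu
rno-miR-200c-3p: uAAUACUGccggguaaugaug
rno-miR-141-3p: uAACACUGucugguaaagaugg
The assay name miR-203 carries no arm, and the 3p arm is shown because a plain name at that time stood for the main product of a hairpin. Among 693 distinct mature rat names in the RefSeq table, 0 others shared the seed of rno-miR-203a-3p and 0 shared that of rno-miR-205. The sequences of rno-miR-203a-3p and rno-miR-205 lie at chr6:137020756-137020777 on the plus strand and chr13:107564588-107564610 on the minus strand. Mir205 overlapped no other annotated gene, and the nearest named gene was Camk1g. Mir203 lay between Aspg and Kif26a and overlapped Mir3545 on the opposite strand. A mature product of that gene covers 20 bases of rno-miR-203a-3p and is its reverse complement there.
rno-miR-203b-5p: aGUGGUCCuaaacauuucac

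Each array gave a threshold cycle (CT) per assay, and a lower CT stands for more template. Levels are given as the array's median CT over its detected miRNAs minus the CT of the assay, so that 1 cycle is 1 on the log2 scale and a higher value means more. The number of assays with a CT below 40 was between 282 and 306 at E20, 224 and 307 at P5, 179 and 273 at P15, and 202 and 223 at P25, with the lowest in P15 replicate 1. The median CT of detected miRNAs ranged from 31.9 to 32.3 at E20 and from 33.7 to 34.2 at P25. The mean of the 3 interplate calibrator wells of an array lay between 18.3 and 19.0, while the small nuclear RNA RNU1A1 ranged from 17.8 to 34.6. The tests covered the 192 of 375 assays that had a CT in 2 or more replicates of each age, of which 120 were measured in all 12 samples. Both miR-203 and miR-205 had a CT in every sample, so that no value of either was imputed.

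miR-205 had one of the 2 lowest CT values on every embryonic array and stood lower in that order at P25. Its CT was 24.5, 26.0 and 25.7 at E20, 28.0, 24.5 and 27.0 at P5, 30.2, 26.5 and 26.7 at P15, and 30.0, 29.3 and 28.8 at P25. Ordered by CT on its own array, miR-205 ranked 1, 1 and 2 at E20, 2, 1 and 4 at P5, 8, 6 and 10 at P15, and 26, 31 and 20 at P25. All samples of P15 and P25 thus ranked behind all 3 of E20, and P5 overlapped with E20. Such a rank orders signals of different primers and not amounts of RNA. The number of ranked assays differed between arrays, and how many other miRNAs separate in rank was not counted.

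On the normalized log2 scale miR-205 was at 7.45, 6.19 and 6.60 at E20, at 6.13, 6.81 and 5.96 at P5, at 4.60, 6.39 and 6.83 at P15, and at 4.18, 4.44 and 4.94 at P25. The age means were 6.75 ± 0.65, 6.30 ± 0.45, 5.94 ± 1.18 and 4.52 ± 0.38 (SD, n = 3 each). The order of the means was therefore E20, P5, P15, P25, but each neighbouring pair of ages overlapped in its samples. The sample that reached from P15 into the range of P25 was P15 replicate 1, whose array had the fewest detected miRNAs. E20 and P25 did not overlap, which held in the same direction for 27 of 156 tested miRNAs measured in all 6 samples (17.3%).

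From E20 to P25 miR-205 was lower by 2.23 on the log2 scale (limma, change of -2.23, SE 0.76, 95% interval -3.84 to -0.62), equal to a 4.68-fold lower level with an interval of 1.54 to 14.3. Its p was 0.00978 and its adjusted p over the 192 miRNAs 0.0626, so it did not pass the threshold of 0.05 in a comparison in which 23 miRNAs (12.0%) did, 15 of them falling (7.81%). The exact two-sided permutation test of the same 3 against 3 samples gave 0.1, the smallest p this design allows. The linear trend with age was -0.78 per 10 days (SE 0.26), with an adjusted p of 0.0595 in limma, again short of the threshold. In that test 27 miRNAs (14.1%) passed, 18 of them falling (9.38%). For this single assay, without adjustment over the other miRNAs, the exact permutation p was 0.00435 for the linear trend and 0.0474 for the F statistic across the 4 ages. The limma F test gave an adjusted p of 0.233, with 15 miRNAs called (7.81%).

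**Figure D1:**
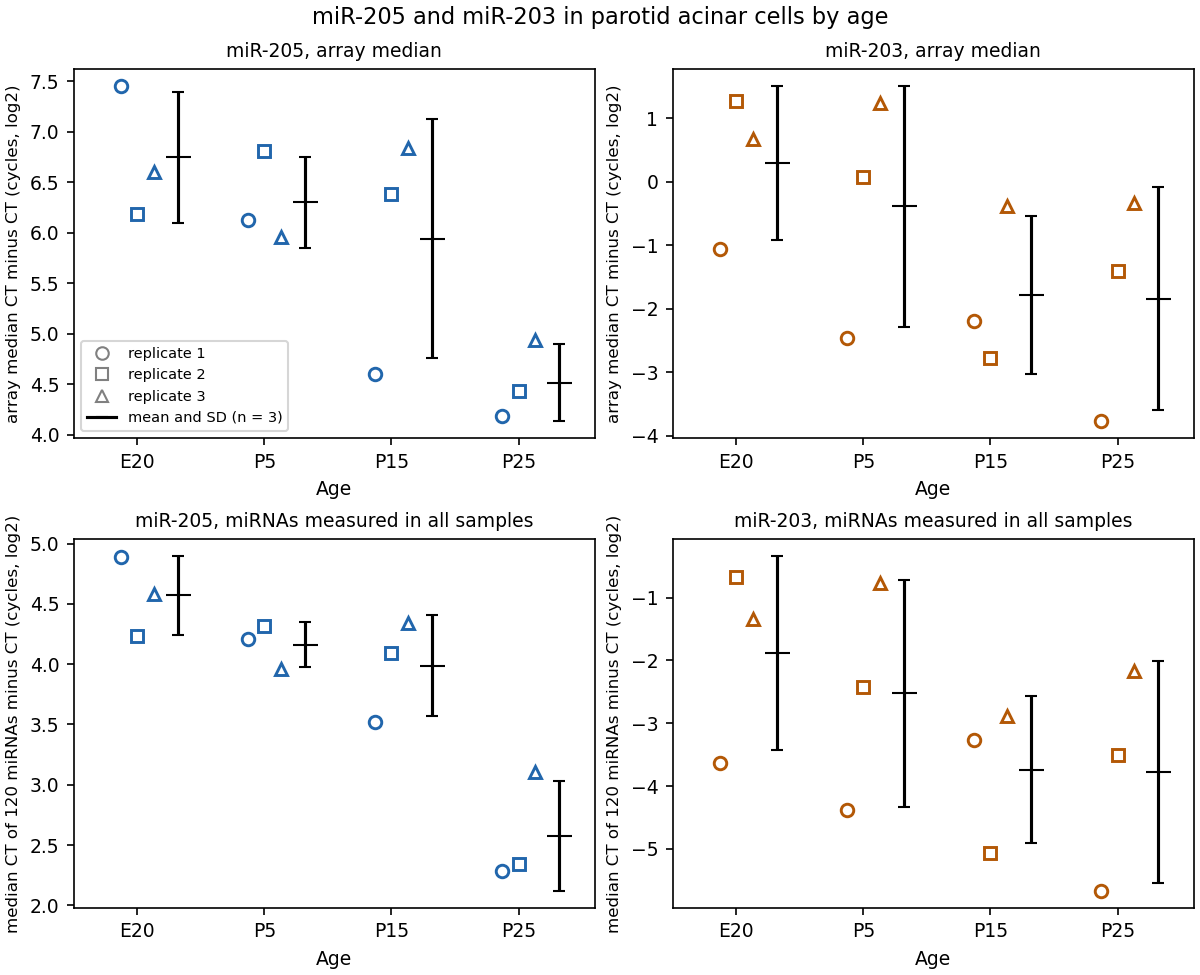
Levels of miR-205 (left) and miR-203 (right) by age, in cycles on a log2 scale. The reference is the array median (top) or the median of the 120 miRNAs measured in all samples (bottom). Each symbol is 1 sample, and the bars are the mean and SD of 3 samples. The 3 P25 samples of miR-205 lie below all E20 samples in both panels, and miR-203 overlaps between all ages.

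The array median is taken over the miRNAs detected on each array, and their number fell with age. Against the median of the 120 miRNAs measured in all samples, miR-205 was at 4.89, 4.23 and 4.59 at E20, at 4.21, 4.32 and 3.96 at P5, at 3.52, 4.09 and 4.34 at P15, and at 2.28, 2.34 and 3.10 at P25. The P25 samples then lay below every sample of the 3 earlier ages, and the SD at P15 was 0.42 instead of 1.18. The share of other miRNAs with such a separation under this reference was not counted. With this reference the change from E20 to P25 was -1.99 (SE 0.49, limma adjusted p = 0.0169) and the trend -0.68 per 10 days (adjusted p = 0.0154), both past the threshold, as 40 and 42 of the 192 miRNAs were. The median change of all 192 miRNAs moved with the reference, from 0.15 with the array median to 0.38. Any change of reference shifts all miRNAs of an array alike, so the distance of miR-205 from that median, -2.37, is fixed under both by construction.

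As a percentile among the 120 miRNAs measured in all samples, miR-205 stood at 99.7 ± 0.481 at E20, 98.9 ± 1.27 at P5, 94.4 ± 2.10 at P15 and 80.3 ± 4.59 at P25 (SD, n = 3 each). This measure, added after the values had been seen, uses only the order of CT values on an array. Most of the fall in percentile lay between P15 and P25. For this single assay the exact permutation p was 0.000455 for the F statistic and 1.89e-05 for the linear trend, unadjusted. At E20 miR-205 stood at or near 100, the upper bound, so it could hardly rise and its spread there was held small. How many of the other ranked miRNAs reach such a p was not counted.

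With missing wells set to CT 40, which then enter the array median, the change of miR-205 from E20 to P25 was -0.02 (limma adjusted p = 0.980) and its trend -0.01 per 10 days (adjusted p = 0.968), while the median change of all miRNAs was 2.33. Leaving out 1 sample moved the adjusted p of the change in both directions. It was 0.0195 without P15 replicate 1, which enters that change only through the shared spread, and 0.171 without E20 replicate 1, 0.162 without P25 replicate 1, 0.145 without P25 replicate 2 and 0.138 without E20 replicate 3. The trend was -0.75 per 10 days without P15 replicate 1 (adjusted p = 0.0204), -0.83 without P15 replicate 3 (adjusted p = 0.0368) and -0.73 without P25 replicate 2 (adjusted p = 0.146). The other ages differed less in miR-205. The change was -0.44 from E20 to P5 (limma adjusted p = 0.861), -0.80 from E20 to P15 (0.551), -0.36 from P5 to P15 (0.919) and -1.42 from P15 to P25 (0.758), in comparisons that called 0 miRNAs (0%), with 15, 40, 12 and 17 at an unadjusted p under 0.05. From P5 to P25 it was -1.78 (adjusted p = 0.245), with 6 miRNAs called (3.12%). The mean of the 9 postnatal samples differed from E20 by -1.16 (SE 0.62, adjusted p = 0.243), where 9 miRNAs were called (4.69%). A curved pattern, the second polynomial of age, gave an adjusted p of 0.969 for miR-205 and for miR-203, and 0 miRNAs were called (0%), 8 at an unadjusted p under 0.05.

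miR-203 was a weak signal with a wide spread. Its CT was 32.99, 30.9 and 31.6 at E20, 36.6, 31.3 and 31.8 at P5, 36.9, 35.7 and 33.9 at P15, and 37.9, 35.1 and 34.0 at P25. Only 7 of 12 wells had a CT of 35 or below, of which 1 was at P15 and 1 at P25, and late cycles are the least precise. The normalized values were -1.06, 1.27 and 0.68 at E20, -2.47, 0.07 and 1.23 at P5, -2.19, -2.77 and -0.38 at P15, and -3.77, -1.41 and -0.33 at P25. At each postnatal age replicate 3 was the highest sample. The means were 0.29 ± 1.21, -0.39 ± 1.89, -1.78 ± 1.25 and -1.84 ± 1.76 (SD, n = 3 each), in the order E20, P5, P15, P25, and no neighbouring ages differed beyond their spread.

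From E20 to P25 the change of miR-203 was -2.13 (SE 1.10, 95% interval -4.48 to 0.22, limma adjusted p of 0.192), a ratio of 4.38 with an interval of 0.861 to 22.3. The trend was -0.85 per 10 days (SE 0.38, adjusted p = 0.142), the F test gave an adjusted p of 0.436, and the mean of the postnatal samples differed by -1.63 (SE 0.90, adjusted p = 0.247). Pairwise changes were -0.68 from E20 to P5 (adjusted p = 0.854), -2.08 from E20 to P15 (0.309), -1.40 from P5 to P15 (0.879), -1.45 from P5 to P25 (0.682) and -0.05 from P15 to P25 (0.990). The exact permutation p was 0.2 for E20 against P25, 0.0649 for the linear trend and 0.319 for the F statistic. Neither miR-203 nor miR-205 was thus called in any of these comparisons. With the replicate number as a block the trend of miR-203, -0.85 per 10 days, passed (adjusted p = 0.0412), and same-numbered samples deviated together among the postnatal ages but not with E20. The change of miR-203 from E20 to P25 was -1.17 without P25 replicate 1, -1.40 when a CT above 37 counted as missing, -3.86 without normalization and 0.07 with missing wells at CT 40, and it passed in none of these.

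Over all samples the changes of the pair were close in size and differed in precision, but without P25 replicate 1 they were -1.17 for miR-203 and -2.06 for miR-205, and with the limit of CT 37 -1.40 and -2.52. Among the 192 miRNAs, 89 had a change below 0 from E20 to P25, and miR-205 was 30th and miR-203 35th from the lowest. The SD within ages was 0.74 for miR-205, with 33 miRNAs having a smaller one, and 1.56 for miR-203, with 151 having a smaller one. The median over all was 1.11.

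**Figure D2:**
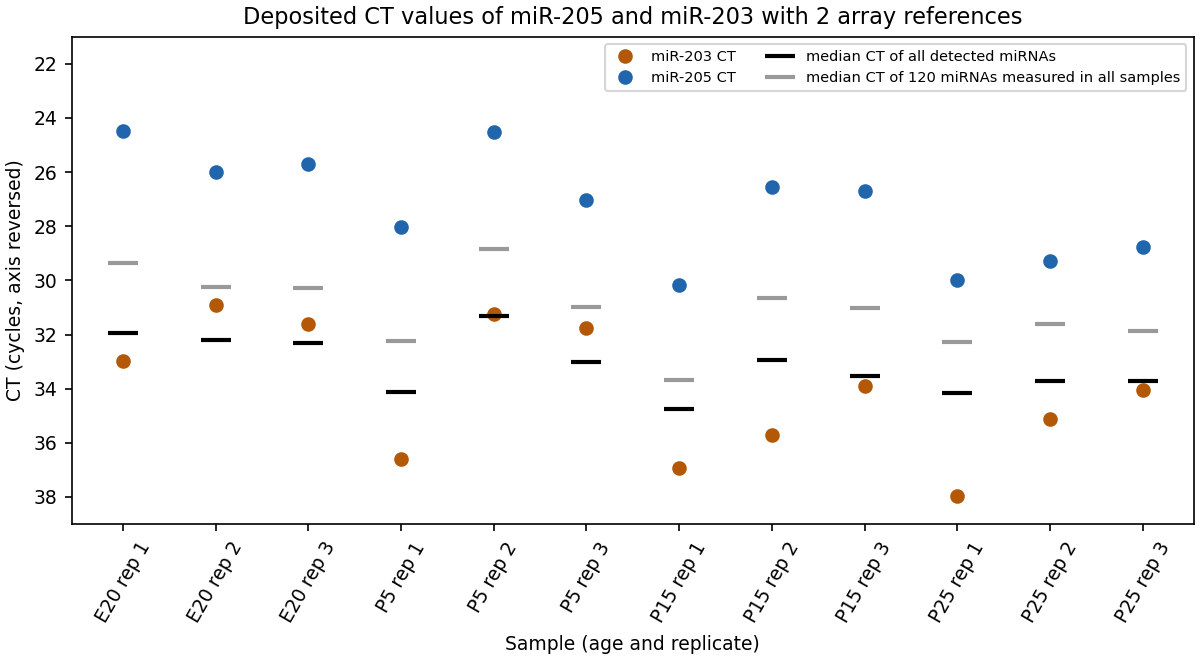
Deposited CT values of miR-205 (blue) and miR-203 (orange) in each of the 12 samples, with the median CT of all detected miRNAs (black bars) and of the 120 miRNAs measured in all samples (grey bars). The axis is reversed so that stronger signals stand higher. miR-205 lies above both references in all samples, and miR-203 lies below the grey bar in all samples.

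The difference between the CT of miR-203 and that of miR-205 on the same array needs no reference. It was 8.51, 4.91 and 5.92 cycles at E20, 8.59, 6.74 and 4.73 at P5, 6.79, 9.16 and 7.22 at P15, and 7.95, 5.85 and 5.27 at P25. From E20 to P25 it changed by -0.0954 cycles (95% interval -3.19 to 3.00, exact permutation p = 0.9), and the exact F test across ages gave 0.71. The interval is wide enough to hold changes of up to 3 cycles either way, so unequal changes of the pair were not detectable here.

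Across the 12 samples the normalized values of the pair had a Pearson r of 0.440 (permutation p = 0.152) and a Spearman rho of 0.350 (permutation p = 0.268). Without the 2 samples farthest from the median of miR-203, r was 0.335, and for deviations from the age means it was 0.118. Leaving out P25 replicate 1 alone took r to 0.231. The level of miR-205 moved with the number of miRNAs detected on the array (r = 0.821, permutation p = 0.00152, adjusted over 5 relations 0.00760; rho = 0.785, adjusted 0.0127). For the deviations from the age means r was 0.729, and without the 2 samples farthest from the median number detected it was 0.780. With the 120 miRNAs as reference the same relation had an r of 0.709 (adjusted permutation p = 0.0226; rho = 0.767), and 0.471 for the deviations. For miR-203 r was 0.588 (adjusted permutation p = 0.0762; rho = 0.592), and 0.543 without the 2 farthest samples. The relations with the number detected were added after the values had been seen, and their part in the change with age was not tested.

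The other miRNAs known to repress ZEB1 and ZEB2 had changes of the opposite sign. The miR-200 family (miR-200a, miR-200b, miR-200c, miR-141 and miR-429) had 7 assays, mouse and rat together, all 7 of which were tested and all 7 of which had a change above 0 from E20 to P25. Their median change was 2.03, against 0.15 over all 192 miRNAs. Between E20 and P25, 0 of 7 were called by limma, against 23 of all 192 (12.0%), and 5 of 7 had an unadjusted p under 0.05, against 62 of 192. With the median of the 120 miRNAs as reference, all 7 changes were again above 0, the lowest 1.23 for miR-429. Of these, 5 of 7 were called, all but miR-429 and the rat assay of miR-200b. Over all, 40 of 192 were called there, and 20 of these rose. Without P15 replicate 1, 4 of 7 were called, among 38 of 186 tested. The mouse assay of miR-200c was the 1 family assay called without P15 replicate 3 (17 of 146 called) and with the replicate block (32 of 192). With the mean of the 120 miRNAs as reference, 3 of 7 were called, among 35 of 192. With missing wells at CT 40, 7 of 7 were called, among 65 of 192, of which 60 rose. In the linear trend, which called 27 of 192 (14.1%), 1 of 7 was called, the mouse assay of miR-200c, rising by 1.01 per 10 days (limma adjusted p = 0.0493). Its change from E20 to P25 was 2.75 (adjusted p = 0.0635), that of the rat assay of the same miRNA 2.03, that of miR-200a 2.60 (adjusted p = 0.0716), that of miR-141 2.02 (adjusted p = 0.0927) and that of miR-429 1.00. The mouse and rat assays of miR-200b gave 2.23 and 1.34. The 7 changes stayed above 0 under each reference, but without normalization 2 of 7 were below 0, miR-429 at -0.73 and the rat assay of miR-200b.

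Set against the mean CT of these 7 assays on the same array, miR-205 was at 3.14, 3.66 and 3.15 cycles at E20, at 2.31, 2.25 and 1.81 at P5, at 1.55, 1.19 and 0.44 at P15, and at -0.69, -1.43 and -0.60 at P25. No 2 ages overlapped in this difference, and each age was lower than the one before it. The means were 3.31 ± 0.29, 2.12 ± 0.27, 1.06 ± 0.57 and -0.91 ± 0.45 (SD, n = 3 each), a difference of -4.22 cycles between E20 and P25 that no array reference can move. For miR-203 the same difference had means of -3.14 ± 2.08, -4.56 ± 1.68, -6.66 ± 1.37 and -7.26 ± 1.39. Its E20 samples, from -5.38 to -1.26, did not overlap with its P25 samples, from -8.64 to -5.87. On the normalized scale these samples did overlap, from -1.06 to 1.27 at E20 and from -3.77 to -0.33 at P25. The difference from the miR-200 family was chosen after the values had been seen and is given as a description, with no test. The 7 assays themselves had a median change of 2.03 from E20 to P25, which enters the difference. How many other miRNAs separate by age on this scale was not counted. The difference describes an unequal change of miR-205 and the miR-200 family and does not say which of them changed.

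**Figure D3:**
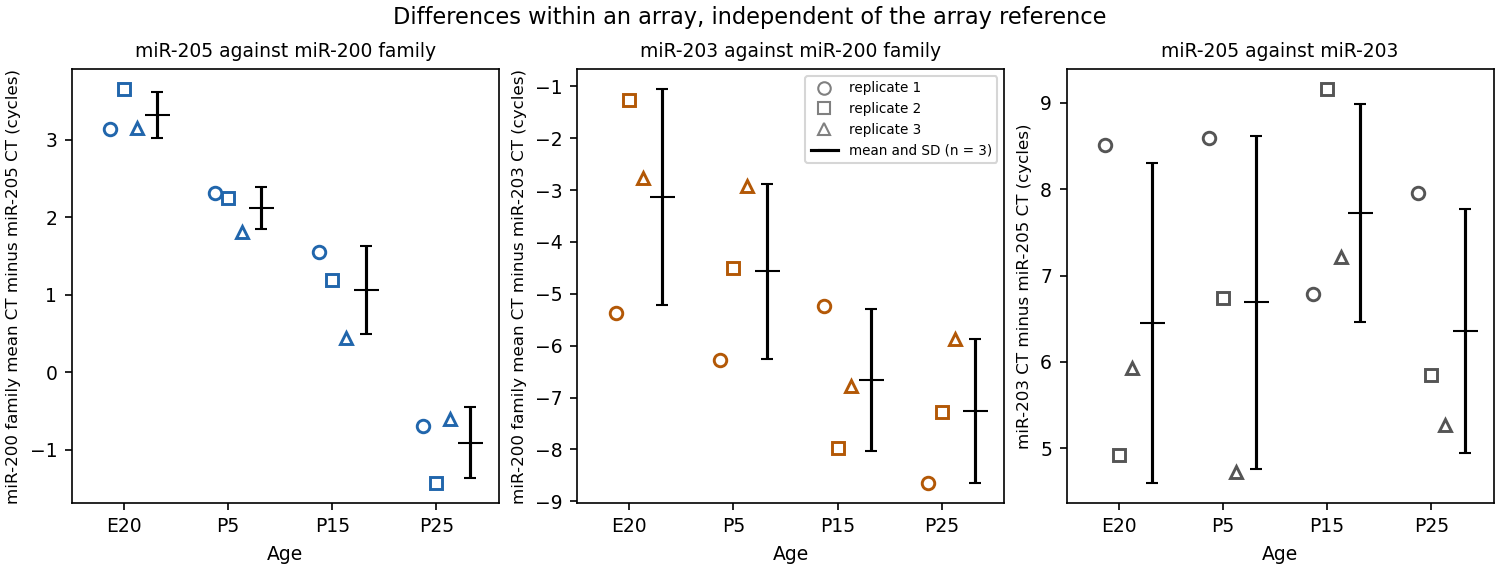
Differences within an array by age, in cycles, for miR-205 (left) and miR-203 (middle) against the mean CT of the 7 miR-200 family assays, and for miR-203 CT minus miR-205 CT (right). Symbols are samples and bars the mean and SD of 3. On the left the 4 ages do not overlap, from a mean of 3.31 at E20 to -0.91 at P25, while on the right they overlap throughout. The miR-200 family was chosen for this after the values had been seen, and its own median change of 2.03 enters the difference. How many other miRNAs separate in this way was not counted.

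Of a list of miRNAs known from skin and other stratified epithelium (miR-21, miR-24, miR-31, miR-34a, miR-34b, miR-34c, miR-125b, miR-184 and the miR-183, miR-96 and miR-182 cluster), 13 assays were in the table and 8 were tested. Between E20 and P25, and in the linear trend, 0 of 8 were called by limma, with 1 and 1 at an unadjusted p under 0.05. Over all 192 miRNAs 23 (12.0%) and 27 (14.1%) were called, and 62 and 60 had an unadjusted p under 0.05. Their median change was 0.11, close to the 0.15 of all miRNAs, and 5 of 8 were above 0.

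**Figure D4:**
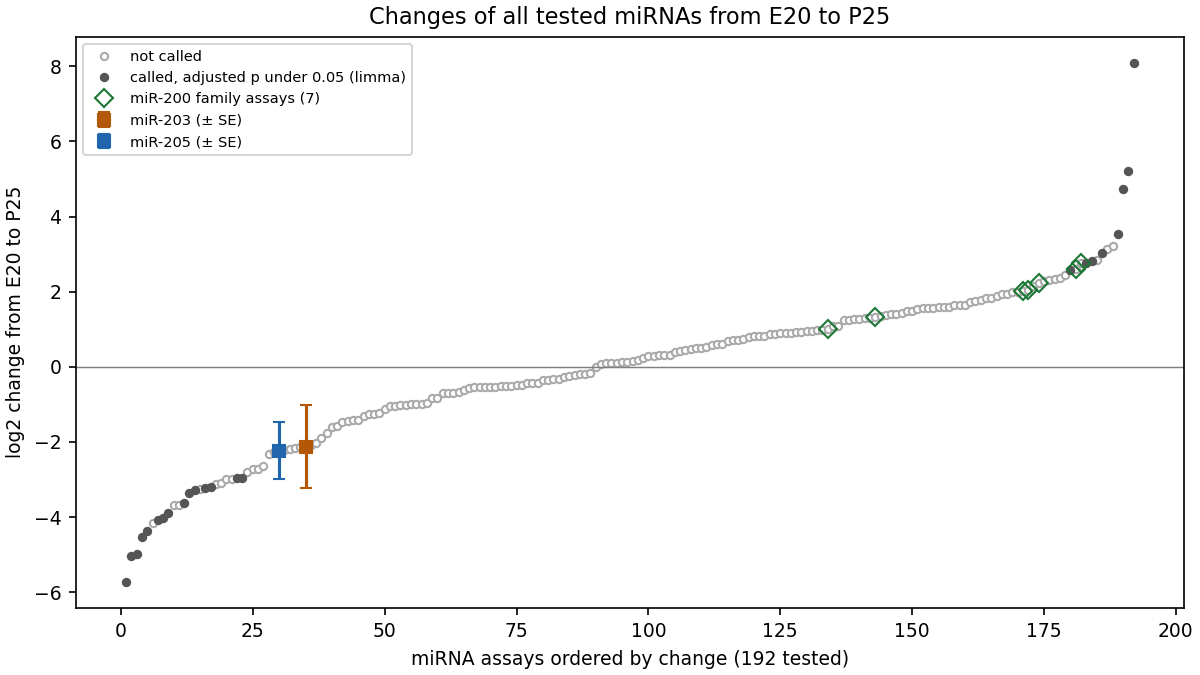
Changes from E20 to P25 on the log2 scale of the 192 tested miRNAs, in rising order, with miR-205 and miR-203 (squares, ± SE) and the 7 miR-200 family assays (diamonds). Filled grey points passed an adjusted p of 0.05. The pair stands 30th and 35th from the low end, near -2.23 and -2.13, and the 7 diamonds are all above 0.

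The miRNAs whose levels across samples were most like those of miR-205 were miR-17 (r = 0.928 over 11 samples), miR-106b (r = 0.914 over 12) and miR-20a (r = 0.887 over 12), out of 181 assays compared with a median r of 0.165. For deviations from the age means, pooled over the 4 ages, r was 0.889 with miR-106b and 0.859 with miR-20a. The spread was widest at P15 for each, with an SD of 1.18 for miR-205, 2.43 for miR-106b and 1.36 for miR-20a. These r values are descriptions, since all miRNAs of a sample share its array median. From E20 to P25, miR-17 fell by 3.63 (limma adjusted p = 0.0124), while the change was -3.12 for miR-106b (adjusted p = 0.0626) and -1.77 for miR-20a (adjusted p = 0.154). The rat sequences of the 3 share a seed with each other that differs from that of miR-205. They are shown because their near-identical letters may make signals of their assays hard to separate, which was not tested.
rno-miR-17-5p: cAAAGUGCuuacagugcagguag
rno-miR-20a-5p: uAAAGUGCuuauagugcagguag
rno-miR-106b-5p: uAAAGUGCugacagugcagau
For miR-203 the most alike were miR-410 (r = 0.799 over 10 samples), miR-434-3p (r = 0.690 over 12) and miR-503 (r = 0.668 over 10), against a median r of -0.05. Their changes from E20 to P25 were -2.98 for miR-410 (adjusted p = 0.0748), -4.97 for miR-434-3p (adjusted p = 0.00864) and -4.37 for miR-503 (adjusted p = 0.00864), the last 2 past the threshold. At P25 miR-410 and miR-503 were each measured in 2 of 3 samples, and the gaps were filled before the fit.

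miRNAs that mark cells were read beside these values. Of 5 assays known from acinar and other secretory cells, 3 are miR-200 family assays already given, those of miR-200c and miR-141. The other 2 rose from E20 to P25, miR-375 by 8.09 and miR-148a by 5.20. At E20 miR-375 was measured in 2 of 3 samples, and the gap was filled before the fit. The summed linear level of the 5 went from 31.2 to 73.2 at E20 to 402 to 658 at P25. Striated muscle miRNAs, like miR-205, had changes below 0. Of 3 tested, 2 fell, miR-1 and miR-133b, and the summed level of the 5 muscle assays was 20.5 to 74.8 at E20 and 1.12 to 3.68 at P25. Of 6 mesenchymal and smooth muscle assays, miR-145 was called as rising and miR-214 as falling (change of -4.53). The level of miR-145 at E20 had an SD of 4.13 (n = 3), and its linear trend was not called (limma adjusted p = 0.0527). The assays of miR-199a (changes of -2.08 and -2.71) and of miR-143 (0.99 and 1.09) were not called. The sum of the 6 was 55.3 to 82.1 at E20 and 91.1 to 170 at P25. Of 5 tested leukocyte assays, 1 endothelial assay and 2 tested neuronal assays, 0 were called by limma. At an unadjusted p under 0.05 there were 1, 0 and 1, against 62 of all 192. With sets this small, 0 calls cannot be told apart from the 12.0% called over all 192. Of 3 erythrocyte assays, 0 could be tested. These sums are of values set to the array median, and their part in the levels of miR-205 and miR-203 was not tested.

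**Figure D5:**
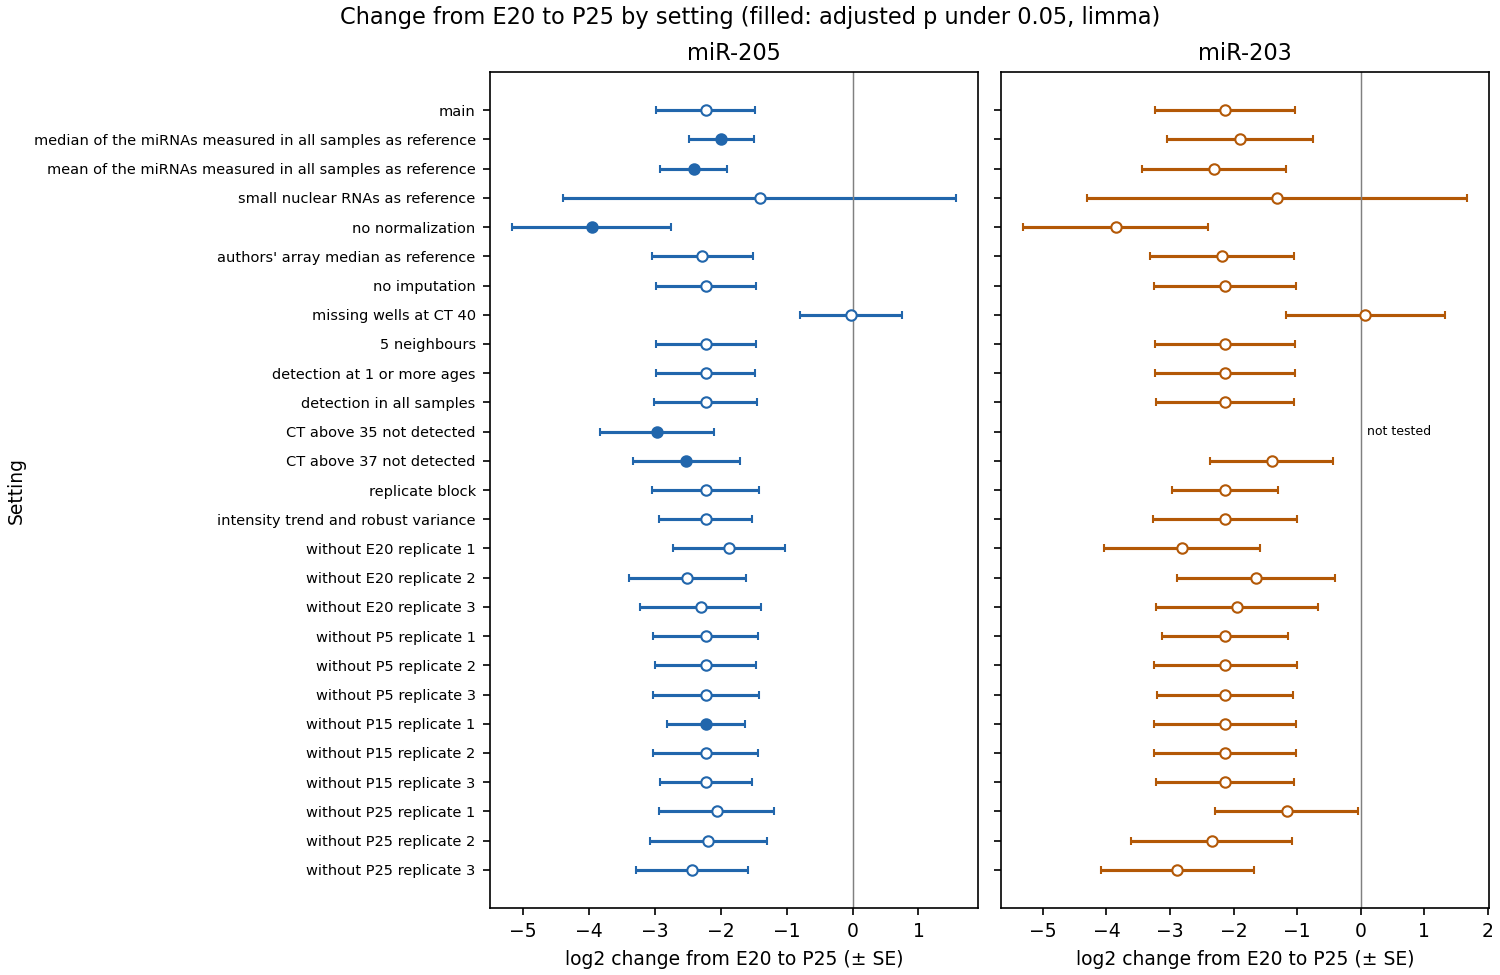
Change from E20 to P25 (log2 scale, ± SE) of miR-205 (left) and miR-203 (right) under each setting of the processing, with filled points where the limma adjusted p was under 0.05. miR-205 is near 0 with missing wells at CT 40, below 0 in the other settings, and filled in 6 of the alternatives, from -1.99 to -3.95, and miR-203 is filled in none.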

How the data were processed

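The authors ran 1 ng of total RNA per sample on the Exiqon rodent panel. The deposited value of a well is its CT, a score in PCR cycles, and the authors neither normalized, imputed nor averaged it. Wells marked undetermined were treated as missing. Groups and replicates came from the labels, and 3 arrays per age limit the precision. A CT below 40 counted as detected. Assays had to be detected in 2 or more replicates of each age. Values are the array's median over its detected miRNAs minus the CT, with gaps then filled from the 10 nearest neighbours. The 4 age means were fitted over all 12 samples with limma 3.58.1 in R 4.3.3, with Benjamini-Hochberg adjustment over the 192 miRNAs within each comparison and a threshold of 0.05. Trends used orthogonal polynomials of the day from birth, taken as embryonic day 22, with E20 at -2. Exact permutation tests over samples used 369600 arrangements of the 4 ages, or all arrangements of the ages compared, and correlations 100000 resamples (scipy 1.17.1). Figures were drawn with matplotlib 3.10.9. The fit was tested on simulated data.

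The members, the lists and the tests were chosen with earlier results of these data known. The genes named are the pair, the 3 tested miRNAs most correlated with each, the miR-200 family, and markers of cell types. Alternatives covered the array reference, imputation, the detection filter, the CT limit, the variance model, a replicate block, and leaving out each sample. The replicate numbers paired the postnatal ages by their values alone, since in 9 of 9 same-numbered pairs the deviations from age means correlated above 0.1 (0.126 to 0.563), against 1 of 9 pairs with E20 (-0.234 to 0.123). Replicate 1 had the fewest detected miRNAs at P5 (224), P15 (179) and P25 (202), and replicate 3 at E20 (282). The part of detection in these correlations was not tested. The limma p-values weigh differences between ages against the spread between samples of an age. Permutation p-values set the observed value against rearrangements of the samples over the ages. For the correlations the samples were shuffled without regard to age.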

Additional observations from a re-analysis of the deposited data

How the results depend on the processing

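miR-205 passed the threshold from E20 to P25 under 6 of 26 alternatives, and its change was near 0 under 1, -0.0245 with missing wells at CT 40 (trend -0.0126 per 10 days). Between E20 and P25 its change was -1.99 against the median of the 120 miRNAs and -2.41 against their mean, -3.95 without normalization, and -2.96 and -2.52 when a CT above 35 or 37 counted as missing, and it ranged from -2.51 to -1.87 with 1 sample left out (without P15 replicate 1, -2.23, adjusted p = 0.0195). The adjusted p-values over its alternatives ran from 0.00648 to 0.981. Its trend passed under the same settings, at -0.685, -0.852, -1.44, -1.07 and -0.907 per 10 days, and at -0.782 with an intensity trend and robust variance, and ranged from -0.872 to -0.695 with 1 sample left out. With the mean reference, the adjusted p of its F test was 0.0324. With missing wells at CT 40 the change of miR-203 was 0.0708 from E20 to P25 and 0.0418 to the postnatal mean, and that of miR-205 was 0.513 to the postnatal mean, none past the threshold. With the replicate block, which the values pair only among the postnatal ages, the trend of miR-203 was -0.847 per 10 days (adjusted p = 0.0412). The block changed no other call of the pair, the P5 to P25 changes included (adjusted p = 0.356 for miR-203 and 0.228 for miR-205). The change of miR-203 from E20 to P25 ranged from -2.88 to -1.17 with 1 sample left out, the last without P25 replicate 1, and was -1.40 with the limit of CT 37 and -3.86 without normalization. The correlation of the pair was 0.231 without P25 replicate 1, 0.780 without normalization (permutation p = 0.00438) and -0.339 over the 7 samples with a miR-203 CT of 35 or below (permutation p = 0.472). Against the small nuclear RNAs, whose own CT varied widely, the changes were -1.41 for miR-205 and -1.31 for miR-203 with an SE of 2.98. The number of miRNAs called from E20 to P25 was 23, and 40, 35, 65, 6, 11 and 33 with the median reference, the mean reference, missing wells at CT 40, detection in all samples, a limit of CT 35, and detection at 1 or more ages. The cause of these differences was not tested. miR-203 could not be tested at the limit of CT 35. A fit on rat assays and a comparison of mouse with rat assays were not run, because no rat assay of the pair was among the rows. Values above CT 35, 5 of 12 for miR-203, limit its precision.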
